A study of Mus musculus with 15 samples.

Results

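MC3T3 cells given 3 additions together for 1 day, β-glycerol phosphate (GP), bone morphogenetic protein 2 (BMP-2) and ascorbic acid (AA), and called treated here, were compared with the same cells in medium at day 0. MC3T3 is a mouse calvarial line of osteoblast precursors, and the labels name clone 1b, so all arrays come from 1 clone. Both groups had 3 arrays of total RNA, numbered preparations 1 to 3, and these 6 arrays were 6 of the 15 in the study. The other 9 were GP alone at day 1 and GP alone or all 3 additions at day 3, again with 3 arrays a group. GP alone at day 1 served here as a second setting of the same day, since treated and day 0 cultures differed in medium, time and additions at once. Treated and GP cultures differed in both AA and BMP-2. No group had only 1 of these, so effects of AA and of BMP-2 cannot be told apart. Treated arrays carried the label GP/AA/BMP-2 at day 1, and the day 0 arrays the label medium. What the labels call a preparation may be a separate culture or a repeat of the same one, and where it is the second, p-values speak only of technical spread. Throughout, values for each group are given in the order of preparations 1, 2 and 3.

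BMP-2 binds receptor kinases that phosphorylate Smad1 and its relatives, which enter the nucleus with Smad4 and switch on genes for Id proteins, for homeobox factors of the Dlx and Msx families and for the inhibitory Smads that damp the signal. In osteoblast precursors the signal leads to alkaline phosphatase and, later, to mineralising matrix. Ascorbic acid is a cofactor of prolyl hydroxylases, among them those that mature collagen and those that mark hypoxia-inducible factor for destruction, and GP supplies phosphate for mineral. Fresh medium can also return resting cells to the cell cycle, in which genes of DNA synthesis are followed by genes of mitosis.

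Each array held 12488 probe sets with a linear intensity, of which 66 were controls. On every array the mean between the 2nd and 98th percentiles was 150.0, which shows a scaling of all arrays before deposit, and their number limits the precision. A principal component with 32.8% of the variance set preparation 3 apart from preparations 1 and 2 in every group. Of the 10 osteoblast markers 6 had a probe set that the annotation gave to 1 symbol only. They summed to between 15954 and 20747 in treated and between 17211 and 20046 in day 0 cultures. Most of that was Col1a1 and Col1a2, with means of 8676 and 8762 in treated and 9581 and 8983 in day 0 cultures. Alpl rose and the other 5 did not pass. At an unadjusted p under 0.05 in limma, Ibsp was also higher and Cdh11 lower, with log2 changes of 2.26 and -0.46. Runx2, Sp7, Bglap and Spp1 had no such probe set and were not analysed here, which does not show that the array lacks them. Only probe sets with a mean intensity of at least 24.8, the 40th percentile over the whole table, were tested, and values under 2.8, the 10th percentile and called the floor here, were set to 2.8. Of the 4 adipocyte and 5 endothelial markers with a probe set of 1 symbol 0 were tested. Their sums were 19.1 to 43.5 and 44.5 to 46 in treated and 9.2 to 32.6 and 33.2 to 101.8 in day 0 cultures. In the marker sets for chondrocytes, skeletal muscle, macrophages and osteoclasts, and epithelium, 1, 3, 2 and 1 genes were tested, and limma called 0 in either direction, also at an unadjusted p under 0.05. In such bulk samples fewer cells of a type and less RNA per cell cannot be told apart.

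Treated cultures differed from day 0 in both directions about equally. In limma with Benjamini-Hochberg adjustment over the 7502 tested probe sets, 899 passed an adjusted p of 0.05 (12%), 452 higher (6.03%) and 447 lower (5.96%) in treated cultures. Of these, 897 had the same direction in all 3 preparations, and 151 rose and 124 fell by at least 1 on the log2 scale. Treated and day 0 values did not overlap for 726 of the 899, and for 1535 of all 7502 tested probe sets (20.5%). With 1 probe set for each of 5680 genes, 763 passed (13.4%), 380 rose (6.69%) and 383 fell (6.74%), and the median change over all tested probe sets was 0.00. GP alone, set against the same day 0 arrays, had 54 probe sets past the threshold (0.72%), 53 higher (0.706%) and 1 lower (0.0133%), which gave 48 genes higher (0.845%) and 1 lower (0.0176%). Because the 2 comparisons share the day 0 arrays, the difference between them is the direct comparison of treated with GP cultures at day 1, in which 372 probe sets passed (4.96%), 156 higher (2.08%) and 216 lower (2.88%), or 134 genes higher (2.36%) and 179 lower (3.15%). The pairing by preparation mattered for the count of 899, which was 299 without it, and 528 without treated preparation 2 and 546 without day 0 preparation 3. Without all 5 arrays of preparation 1, 2 or 3 it was 382, 314 and 556.

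**Figure D1:**
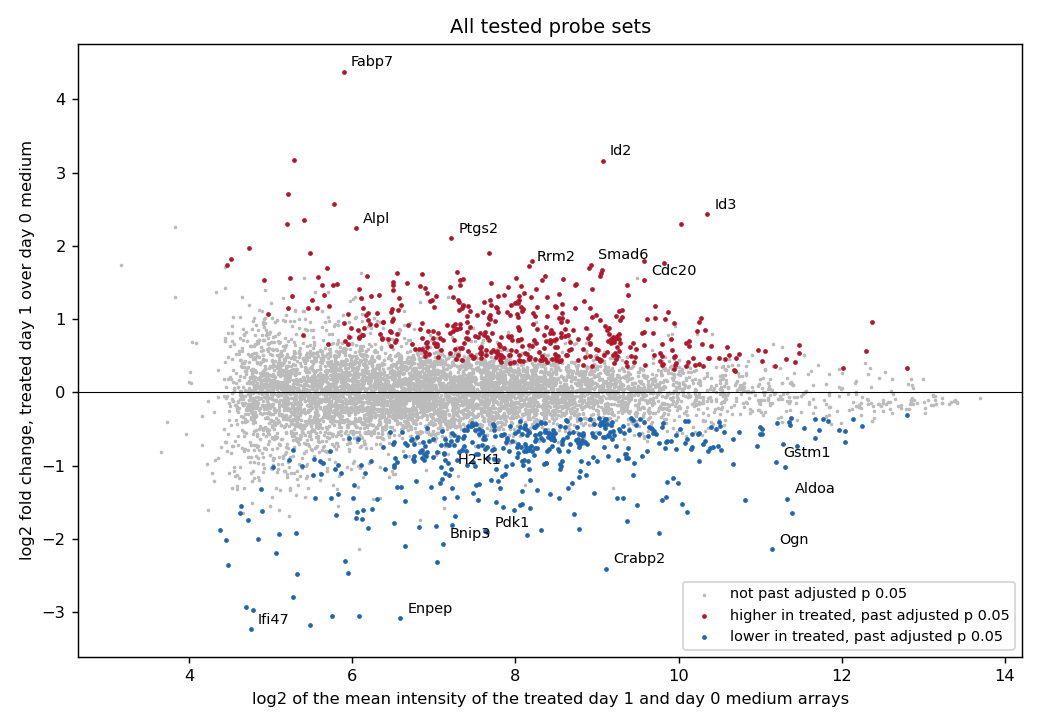
Each point is 1 of the 7502 tested probe sets, with the log2 of its mean intensity in the treated day 1 and day 0 medium arrays on the x axis and its log2 fold change, treated over day 0, on the y axis. Red points (452) were higher and blue points (447) lower in treated cultures past an adjusted p of 0.05 in limma, and 17 genes described in the text are named.

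Genes of mitosis rose almost throughout their list, whose members were chosen with earlier results of these data known. Of 38 tested genes of the mitosis and spindle list, 35 rose and 0 fell, beside 6.69% and 6.74% of all genes. The median log2 change was 1.19, against 0.00 over all genes. In GP cultures 25 of the same 38 rose over day 0, beside 0.845% of all genes, with a median of 1.06. The direct comparison of treated with GP cultures called 0 of them in limma, beside 2.36% higher and 3.15% lower of all genes. There 3 were higher at an unadjusted p under 0.05, and the median was 0.13. Cdc20, which activates the ubiquitin ligase that ends mitosis, read 1069, 1154 and 1168 in treated, 1137, 1049 and 928.6 in GP and 348.8, 470.3 and 364.7 in day 0 cultures. All treated and GP values of Cdc20 lay above all day 0 values, and treated and GP values overlapped. Its change was 1.53 ± 0.14 (log2, SE) in treated cultures and 1.40 in GP cultures (adjusted p = 6.83e-05 and 0.000486).

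Ccnb2, cyclin B2, a partner of the mitotic kinase Cdk1, averaged 1279 ± 131 in treated and 595.9 ± 35.8 in day 0 cultures (SD, n = 3 each), a change of 1.10 ± 0.11 (SE) with an adjusted p of 9.49e-05. GP cultures read 1388, 1075 and 1324 for it, within reach of the treated arrays, and the treated minus GP difference was 0.02 ± 0.11 (adjusted p = 0.954). Mad2l1, a protein of the spindle checkpoint, rose by 1.41 ± 0.14 and Kif20a, a kinesin needed for cytokinesis, by 1.33 ± 0.13. The members that did not pass were Foxm1, Ube2c and Pttg1, at 0.39, 0.27 and 0.01, named after their values were seen. The mitosis medians were 1.11, 1.03 and 1.41 within preparations 1, 2 and 3. Without the pairing 29 of the 38 rose in treated cultures and 10 in GP cultures. The GP count rested on few arrays: it was 0, 3 and 15 without preparation 1, 2 or 3, 18 without day 0 preparation 1 and 18 without day 0 preparation 3, and 17 without GP preparation 1.

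The upstream regions of Ccnb2 and Cdc20 are shown because promoters of mitotic genes are known for CCAAT boxes, bound by the factor NF-Y, and for the element TTTGAA, through which these genes are held silent in resting cells. Both are the 250 bases before the RefSeq start on the minus strand of GRCm38.p6, at chr9:70421555-70421804 for Ccnb2 and chr4:118437344-118437593 for Cdc20, read 5′ to 3′ along the gene, with capitals at CCAAT and TTTGAA.
Ccnb2: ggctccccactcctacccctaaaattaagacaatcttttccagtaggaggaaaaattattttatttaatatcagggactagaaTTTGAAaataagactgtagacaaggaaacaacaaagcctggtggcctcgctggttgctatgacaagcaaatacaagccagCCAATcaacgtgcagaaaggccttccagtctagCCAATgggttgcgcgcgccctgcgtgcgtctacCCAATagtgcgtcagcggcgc
Cdc20: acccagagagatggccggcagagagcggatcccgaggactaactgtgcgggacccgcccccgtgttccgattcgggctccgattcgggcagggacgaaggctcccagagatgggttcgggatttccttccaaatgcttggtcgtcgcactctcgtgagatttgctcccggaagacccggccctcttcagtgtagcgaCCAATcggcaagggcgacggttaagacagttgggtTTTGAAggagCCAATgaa
Ccnb2 held CCAAT with first bases 87, 54 and 21 bases before the start and TTTGAA at 167. Cdc20 held CCAAT at 53 and 8 bases and TTTGAA at 18, all on the gene's strand and none overlapping. On either strand, CCAAT was in 23 of 30 upstream regions of tested mitosis genes in the RefSeq table (76.7%), against 34.5% of all 27025 regions. TTTGAA was in 12 of the 30 (40%), against 16.3% of all. CCAAT was also in 9 of 16 regions of tested BMP and TGF-beta list genes (56.2%). For hypoxia genes outside glycolysis it was in 5 of 13 (38.5%) and for glycolysis genes in 4 of 14 (28.6%). Both genes were picked for display after their values and letters were seen, and a match is a description, not a site.

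Genes of DNA replication rose as well, and for some the treated level was above that of GP cultures. Of 37 tested genes 26 rose in treated cultures and 0 fell, beside 6.69% and 6.74% of all genes, with a median of 0.94. In GP cultures 1 of the 37 rose over day 0, beside 0.845% of all genes. It was Top2a, a call lost without the pairing. There 17 were higher at an unadjusted p under 0.05, and the median was 0.41. In treated against GP cultures 17 were higher at an unadjusted p under 0.05. Of them 5 passed the threshold (Rrm2, Mcm2, Cdc45, Cdc6 and Mcm7), beside 2.36% of all genes. Rrm2, the regulated subunit of ribonucleotide reductase, which makes deoxynucleotides, read 406.3, 357.4 and 564.8 in treated, 230, 157.2 and 287.7 in GP and 109.2, 139.8 and 150.1 in day 0 cultures. Treated and day 0 values did not overlap, and GP values lay between them in each preparation. Its change was 1.72 ± 0.17 over day 0 (adjusted p = 6.83e-05), and treated exceeded GP cultures by 0.99 ± 0.17 (adjusted p = 0.00399).

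Mcm2 and Mcm7, subunits of the replicative helicase, rose by 1.30 ± 0.17 and 1.01 ± 0.15. Mcm2 exceeded its GP level by 0.90 (adjusted p = 0.00945) and Mcm7 by 0.58 (adjusted p = 0.0359). Pcna, the sliding clamp of DNA polymerases, averaged 1296 ± 189 in treated and 669.4 ± 77.3 in day 0 cultures (SD, n = 3 each), up by 0.95 ± 0.13, and its difference from GP cultures, 0.46 ± 0.13, did not pass (adjusted p = 0.0508). The replication count was 14 and 12 without preparation 1 or 3 and 17 in a fit of the 6 arrays alone. Without the pairing, 19 rose over day 0, and limma called 0 of the 5 differences from GP cultures. That count of 5 was 2, 0 and 1 without preparation 1, 2 or 3, and 2 without treated preparation 3. It was 1 and 2 without GP preparation 2 or 3, and 10 and 9 without day 0 preparation 2 or 3. CCAAT was in 21 of 33 upstream regions of tested replication genes (63.6%) and TTTGAA in 4 of 33 (12.1%).

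Regulators of G1 moved less and in both directions. Of 14 tested genes in that list 3 rose and 1 fell, beside 6.69% and 6.74% of all genes, and the median was 0.06. Cdkn2d, an inhibitor of the cyclin D kinases, rose by 1.22 ± 0.16 in treated and by 1.03 in GP cultures. Ccne1, cyclin E1, rose by 0.52 and Cdk4 by 0.31, while another Cdk4 probe set gave 0.19 and did not pass. Ccnd1, cyclin D1, read 324.6, 357 and 608.5 in treated, 659.5, 619.8 and 827.1 in GP and 692.4, 755.3 and 925.7 in day 0 cultures. Each treated value of Ccnd1 was below the day 0 value of its own preparation, and the groups did not overlap. It fell by 0.93 ± 0.15 (adjusted p = 0.00153), and treated cultures were also below GP cultures, by -0.75 (adjusted p = 0.0108). The other probe set of Ccnd1, which is dimmer, gave -0.58 and did not pass. Mybl2, a transcription factor of the cell cycle outside the G1 list, read 21, 67.1 and 132.6 in treated and 12.2, 13.3 and 8.6 in day 0 cultures. It rose by 2.35 ± 0.54 (adjusted p = 0.0114), while its other probe set gave 0.40 and did not pass. The calls of Ccne1, Cdk4 and Mybl2 were lost without the pairing (adjusted p = 0.337, 0.191 and 0.095). Counting that fit, they were lost in 9, 12 and 7 of the alternative fits.

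Growth-related genes of ribosome production rose in part. Of 35 ribosome biogenesis genes 9 rose and 0 fell, beside 6.69% and 6.74% of all genes, and the median was 0.35. The 9 became 2 without the pairing, 4 and 3 without treated preparation 1 or 2 and 3 without day 0 preparation 3. Nhp2, of the complexes that modify ribosomal RNA, averaged 871.9 ± 142 in treated and 399.2 ± 41.3 in day 0 cultures (SD, n = 3 each), a rise of 1.12 ± 0.15 with an adjusted p of 0.000446. GP cultures read 388.3, 395.6 and 467.6, close to day 0 and below every treated array, and treated exceeded them by 1.06 (adjusted p = 0.00145). Dcaf13, a nucleolar protein of ribosome assembly, rose by 0.86 ± 0.14. Srm, which makes spermidine, rose by 1.04 ± 0.18 and Azin1, which protects ornithine decarboxylase, by 0.85 ± 0.15. These were 2 of 5 tested polyamine genes, beside 6.69% of all genes. Of 28 proteasome genes 4 rose, beside 6.69% of all genes, and 2 rose without the pairing. Among the 4 were Psmd13 and Psmd14 at 0.64 and 0.59. Of 30 translation factors and tRNA synthetases limma called 0, with 3 higher and 4 lower at an unadjusted p under 0.05.

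**Figure D2:**
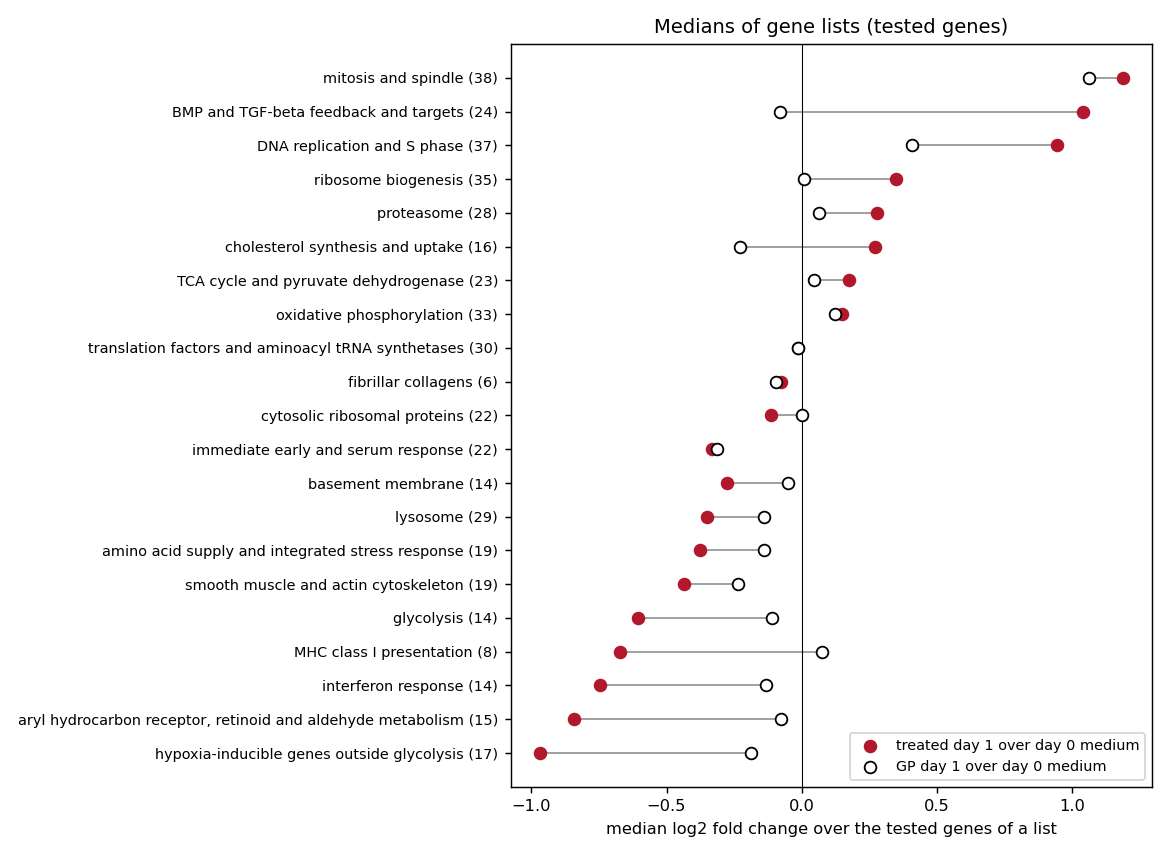
For 21 gene lists, the median log2 fold change over the tested genes (their number in brackets) is shown for treated day 1 over day 0 medium (red) and GP day 1 over day 0 medium (open), joined by a line. The mitosis medians lie close together at 1.19 and 1.06, while those of BMP and TGF-beta feedback, 1.04 and -0.08, and of hypoxia-inducible genes, -0.97 and -0.19, lie apart.

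BMP and TGF-beta feedback and target genes included large changes in both signal targets and inhibitors. Of 24 tested genes 13 rose and 2 fell, beside 6.69% and 6.74% of all genes, and the median was 1.04. GP cultures had a median of -0.08 over day 0, and limma called 0 of the 24 there, with 1 higher and 3 lower at an unadjusted p under 0.05. In the direct comparison 10 were higher and 1 lower in treated than in GP cultures, beside 2.36% and 3.15% of all genes. Without the pairing 5 were higher and 0 lower. The 10 higher genes became 3, 2 and 12 without preparation 1, 2 or 3. Id2, which binds and inactivates helix-loop-helix transcription factors, read 955.5, 999.5 and 909.7 in treated, 190.8, 147.3 and 293.6 in GP and 58.6, 104.8 and 196.5 in day 0 cultures. Every treated value lay far above every GP and day 0 value, and day 0 values spread widely. The Id2 change was 3.16 ± 0.61 over day 0 (adjusted p = 0.00416, and 0.0587 and 0.0671 without preparation 1 or 2), and the difference from GP cultures, 2.24 ± 0.61, did not pass (adjusted p = 0.0514).

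Id3, of the same family, averaged 2218 ± 850 in treated and 390.1 ± 57.3 in day 0 cultures (SD, n = 3 each), a rise of 2.43 ± 0.30 with an adjusted p of 0.000331. Id1 read 439.6, 353.4 and 185.7 in treated and 103.7, 70.4 and 75.6 in day 0 cultures, a rise of 1.90 ± 0.42. Preparation 3 had the lowest treated value of both genes, yet no treated value reached the day 0 range. The Id1 call was lost without the pairing (adjusted p = 0.077), without treated preparation 2 (0.0588) and without preparation 1 or 2 (0.101 and 0.123). Id4 went the other way, at 472, 309 and 223.7 in treated, 587.4, 724 and 506.6 in GP and 1010, 815.5 and 800.7 in day 0 cultures. It fell by 1.45 ± 0.21 (adjusted p = 0.000877) without overlap, and treated cultures were also below GP cultures (-0.91, adjusted p = 0.0276).

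The region upstream of Id2 is shown because Smad1 and its relatives bind the GC-rich element GGCGCC, which reads the same on both strands and is in capitals. It covers 250 bases before the RefSeq start on the minus strand of GRCm38.p6, at chr12:25096093-25096342.
Id2: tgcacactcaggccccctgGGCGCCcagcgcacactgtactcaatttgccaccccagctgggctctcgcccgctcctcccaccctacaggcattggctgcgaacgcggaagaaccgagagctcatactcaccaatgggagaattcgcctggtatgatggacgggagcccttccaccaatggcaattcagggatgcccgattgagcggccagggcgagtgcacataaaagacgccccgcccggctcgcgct
The match starts 231 bases before the start. GGCGCC was in 7 of 16 upstream regions of tested BMP and TGF-beta list genes (43.8%), against 9.5% of all regions. It was also in 4 of 13 regions of the hypoxia genes outside glycolysis (30.8%) and 4 of 14 of glycolysis genes (28.6%). Id2 was picked for display after its values and letters were seen.

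Inhibitory Smads rose too. Smad6, which blocks BMP receptors, read 728.7, 703.2 and 803.9 in treated, 177.1, 248.1 and 261.8 in GP and 189.8, 204.4 and 285.2 in day 0 cultures. GP and day 0 values of Smad6 overlapped, and all treated values stood above both. It rose by 1.74 ± 0.29 over day 0 and exceeded GP cultures by 1.72 ± 0.29 (adjusted p = 0.00173 and 0.00412). Smad7, which blocks both BMP and TGF-beta receptors, rose by 1.44 ± 0.21, and Klf10, a TGF-beta-inducible repressor, by 1.23 ± 0.17. Smad1, a signal carrier, rose by 0.61 ± 0.15, with overlap between groups and a call that was lost without the pairing (adjusted p = 0.474) and without treated preparation 1 or 2 or day 0 preparation 3 (0.074, 0.0835 and 0.0531). Another Smad1 probe set gave 0.40 and did not pass.

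Homeobox genes followed. Dlx2 read 510.3, 413.5 and 509.4 in treated and 183, 134.9 and 177.5 in day 0 cultures, a rise of 1.54 ± 0.19 (adjusted p = 0.000307). Dlx1 rose by 1.32 ± 0.22, Msx2 by 1.19 ± 0.24 and Dlx5 by 0.90 ± 0.20, all without overlap between groups, a trait of 20.5% of tested probe sets. The Msx2 call was lost without the pairing (adjusted p = 0.117). The Dlx5 call was lost without treated or day 0 preparation 2 (adjusted p = 0.0555 and 0.057). Dlx3 was too dim to be tested, at 23.2, 8.3 and 9.8 in treated and 8.5, 18.3 and 6.1 in day 0 cultures. GP cultures stood near day 0 for all 4 tested genes, between -0.22 and 0.13.

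Tgfbi, a secreted TGF-beta-induced matrix protein, read 839.3, 993.6 and 299.4 in treated and 392.1, 284.7 and 65.3 in day 0 cultures. The groups overlapped because preparation 3 was low in both, while each preparation had a higher treated value, and the rise was 1.70 ± 0.20 (adjusted p = 0.000244, and 0.358 without the pairing). Nog, which encodes the BMP antagonist noggin, stood at -0.12 ± 0.31 and did not pass. Of 21 tested ligands and receptors 2 rose and 1 fell, near the shares of all genes (6.69% and 6.74%). Tgfb3, a TGF-beta ligand, rose by 1.00 ± 0.26, and Tgfbr3, a TGF-beta co-receptor, fell by 1.10 ± 0.33. Neither passed without the pairing (adjusted p = 0.0635 and 0.321), and counting that fit the calls were lost in 9 and 17 of the alternative fits. Against day 0, the BMP and TGF-beta feedback count was 9 and 6 higher without preparation 1 or 2, and 10 without the pairing.

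**Figure D3:**
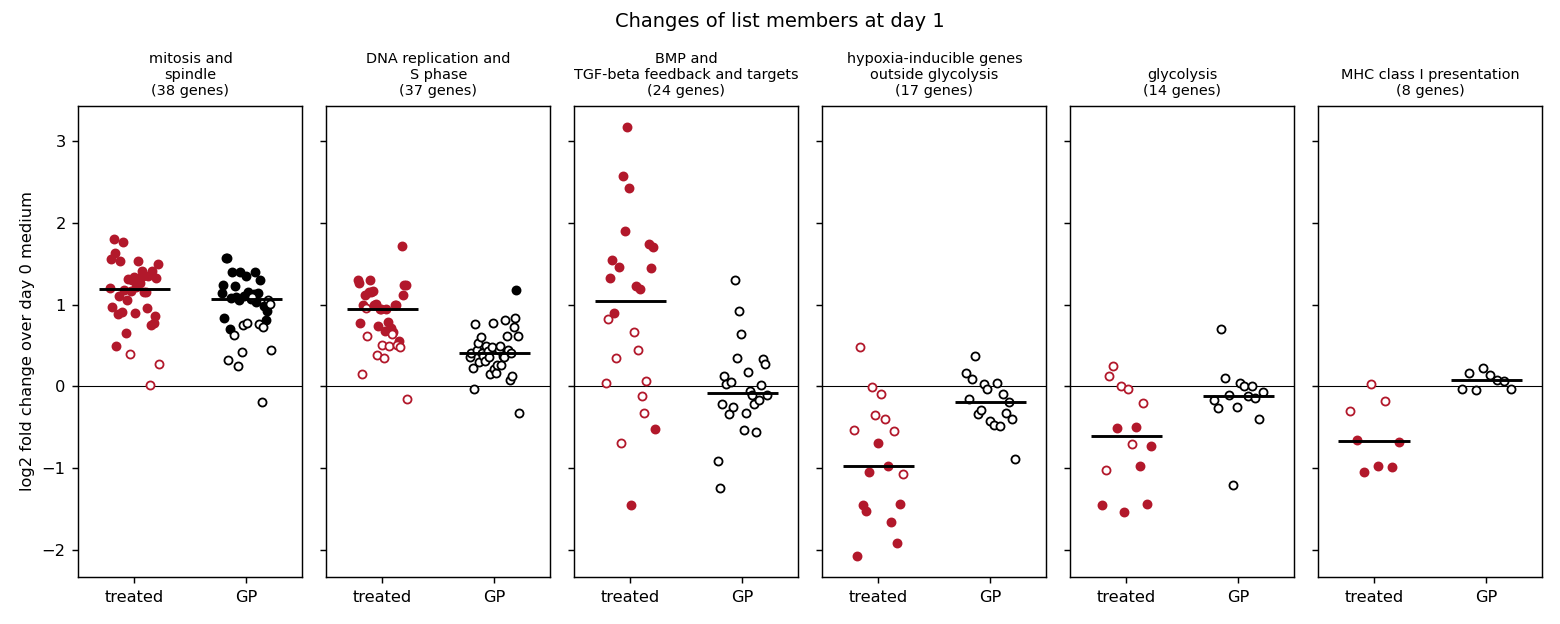
Each point is a tested gene of 1 of 6 lists, with its log2 fold change over day 0 medium in treated (red) and in GP (black) cultures at day 1, filled where the adjusted p in limma was under 0.05, and a bar at the median. Mitosis genes were filled in both columns (35 and 25 of 38), while BMP and TGF-beta feedback, hypoxia, glycolysis and MHC class I genes were filled in treated cultures only (15, 9, 7 and 5), and 1 of 37 replication genes was filled in GP cultures.

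Osteoblast genes were mostly without a call at this time. Of 11 tested, Alpl rose, 0 fell and the median was 0.15, while of all genes 6.69% rose and 6.74% fell. Alpl, tissue-nonspecific alkaline phosphatase, which frees phosphate for mineral, read 61.8, 71.3 and 193.9 in treated, 18.5, 18.2 and 23.9 in GP and 34.1, 23.3 and 10.2 in day 0 cultures. The largest contrast was in preparation 3, which had both the highest treated and the lowest day 0 value. The change was 2.24 ± 0.50 (adjusted p = 0.00985), with values from 1.24 without preparation 3 to 2.93 over the fits that left out arrays. Alpl did not pass in a limma fit of the 6 arrays alone (adjusted p = 0.0705), without treated preparation 3 (0.0578) or without preparation 2 or 3. GP cultures stood at 0.00 against day 0. At day 3 the treated mean was 630.4 and the GP mean 24.97.

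Ibsp, which encodes bone sialoprotein, had treated values of 40.9, 27.6 and 6.1 and day 0 values of 6.1, 3.7 and 0.5, a difference of 2.26 ± 0.93 that did not pass (adjusted p = 0.145), and all 3 day 0 values lay under 24.8. Col1a1, the main bone collagen gene, averaged 8676 ± 1468 in treated and 9581 ± 517 in day 0 cultures (SD, n = 3 each), -0.15 ± 0.13 with an adjusted p of 0.524, and a dimmer probe set had the opposite sign at 0.17. Of 6 fibrillar collagen genes limma called 0, and 0 had an unadjusted p under 0.05. Tnfrsf11b, osteoprotegerin, stood at 0.26 ± 0.22 (adjusted p = 0.519).

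Among 6 small leucine-rich proteoglycans 1 fell and 1 rose, among 13 other matrix glycoproteins 2 fell and 2 rose, and among 14 basement membrane genes 4 fell and 0 rose. Of all genes 6.74% fell and 6.69% rose. Ogn, osteoglycin, a small leucine-rich proteoglycan, read 472.4, 787.8 and 1275 in treated, 1766, 2910 and 2916 in GP and 2251, 3280 and 5479 in day 0 cultures. The groups did not overlap, although preparations differed within each of them, and Ogn fell by 2.14 ± 0.28 (adjusted p = 0.000402). Fmod, fibromodulin, of the same family, read 466.1, 1118 and 2512 in treated and 40.9, 135.8 and 2002 in day 0 cultures. Preparation 3 held high values of Fmod in both groups, its change there was small beside the others, and its rise of 2.29 ± 0.69 (adjusted p = 0.0466) was lost without the pairing (adjusted p = 0.551) and without treated or day 0 preparation 1 or 2 (0.151 to 0.178). Of the basement membrane genes, Col4a1 and Col4a2, the main type IV collagen chains, fell by 1.24 ± 0.18 and 0.74 ± 0.19, Nid2, nidogen 2, by 1.58 ± 0.20 and Lamc1, a laminin chain, by 0.52 ± 0.11. The Col4a2 call was lost without the pairing (adjusted p = 0.15) and without treated or day 0 preparation 2 or 3 (0.0644 to 0.0998). Tnc, tenascin C, rose by 1.46 ± 0.30 and Vcan, versican, by 1.02 ± 0.19, and neither passed without the pairing (adjusted p = 0.0984 and 0.435).

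Among hypoxia-inducible genes those that passed all fell. Of 17 tested genes outside glycolysis 9 fell and 0 rose, beside 6.74% and 6.69% of all genes, with a median of -0.97. Without the pairing 8 fell. GP cultures had a median of -0.19 over day 0, with 0 calls in limma and 3 lower at an unadjusted p under 0.05. In treated against GP cultures 6 genes were lower, beside 3.15% of all genes. Pdk1, which restrains entry of pyruvate into the mitochondrial cycle, read 77.4, 75 and 99.5 in treated, 392.5, 195.7 and 268.7 in GP and 409.8, 282.4 and 263.8 in day 0 cultures. GP and day 0 values overlapped, and each treated value lay below 100. Pdk1 fell by 1.91 ± 0.21 (adjusted p = 0.000134), and the treated minus GP difference was -1.72 ± 0.21 (adjusted p = 0.000592).

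P4ha1, a catalytic subunit of collagen prolyl 4-hydroxylase, which itself uses ascorbate, read 144, 249.5 and 227.6 in treated, 654.2, 479.8 and 676 in GP and 650.5, 615 and 647.9 in day 0 cultures. It fell by 1.66 ± 0.20 (adjusted p = 0.000278) with no overlap between treated and either other group. Bnip3, a protein of mitochondrial turnover, fell by 2.07 ± 0.29, and Egln1, the oxygen sensor that hydroxylates hypoxia-inducible factor, by 1.52 ± 0.19. Hmox1, heme oxygenase 1, fell by 0.69 ± 0.11, with overlapping groups and no call without the pairing (adjusted p = 0.334). Hif1a itself, named after its value was seen, stood at -0.01 and did not pass.

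The upstream region of P4ha1 is shown because ACGTG is the core that hypoxia-inducible factor binds. It covers the 250 bases before the RefSeq start on the plus strand of GRCm38.p6, at chr10:59323046-59323295, with the match, on the opposite strand, in capitals.
P4ha1: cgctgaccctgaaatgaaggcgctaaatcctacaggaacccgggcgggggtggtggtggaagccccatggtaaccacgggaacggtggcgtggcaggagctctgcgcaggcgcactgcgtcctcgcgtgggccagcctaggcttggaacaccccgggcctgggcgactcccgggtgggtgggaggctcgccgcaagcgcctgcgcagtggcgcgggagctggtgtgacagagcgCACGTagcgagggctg
Its first base lies 16 bases before the start. On either strand ACGTG was in 8 of 13 upstream regions of tested hypoxia genes outside glycolysis (61.5%) and 7 of 14 of glycolysis genes (50%), against 16.6% of all 27025 regions. ACGTG was also in 10 of 30 regions of mitosis genes (33.3%), 7 of 33 of replication genes (21.2%) and 4 of 16 of BMP and TGF-beta list genes (25%). P4ha1 was picked for display after its values and letters were seen.

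Glycolysis genes fell with them. Of 14 tested 7 fell and 0 rose, beside 6.74% and 6.69% of all genes, with a median of -0.61. In treated against GP cultures 4 were lower, beside 3.15% of all genes, and 2 without the pairing. Slc2a1, the glucose transporter, is on both lists. Aldoa, aldolase A, which splits fructose bisphosphate, read 1441, 1323 and 1370 in treated, 3690, 3336 and 3075 in GP and 4284, 3817 and 3252 in day 0 cultures. Treated arrays stayed within 1323 and 1441, below every GP and day 0 array. Aldoa fell by 1.45 ± 0.09 (adjusted p = 3.11e-06), the smallest p of the genes named here, and 2 probe sets with shared sequence gave similar values, the other at -1.17. Pgk1, which makes ATP in the pathway, fell by 0.97 ± 0.15, Pfkl, a phosphofructokinase, by 1.53 ± 0.21, and Tpi1, triosephosphate isomerase, by 0.73 ± 0.12. All 4 passed without the pairing, and the glycolysis count was 3 without preparation 2.

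In the mitochondrial cycle 3 of 23 genes rose and 0 fell, beside 6.69% and 6.74% of all genes. Ogdh and Dlst, of the 2-oxoglutarate dehydrogenase complex, rose by 0.71 ± 0.12 and 0.73 ± 0.12. Dlst read 332.1, 327.3 and 342.5 in treated and 191.3, 214.9 and 199.9 in day 0 cultures, without overlap. Another Dlst probe set gave 0.58 and did not pass (adjusted p = 0.055). Of 33 genes of oxidative phosphorylation 3 rose, a share near the 6.69% of all genes, and 0 fell, with a median of 0.15 and 1 rise without the pairing.

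**Figure D4:**
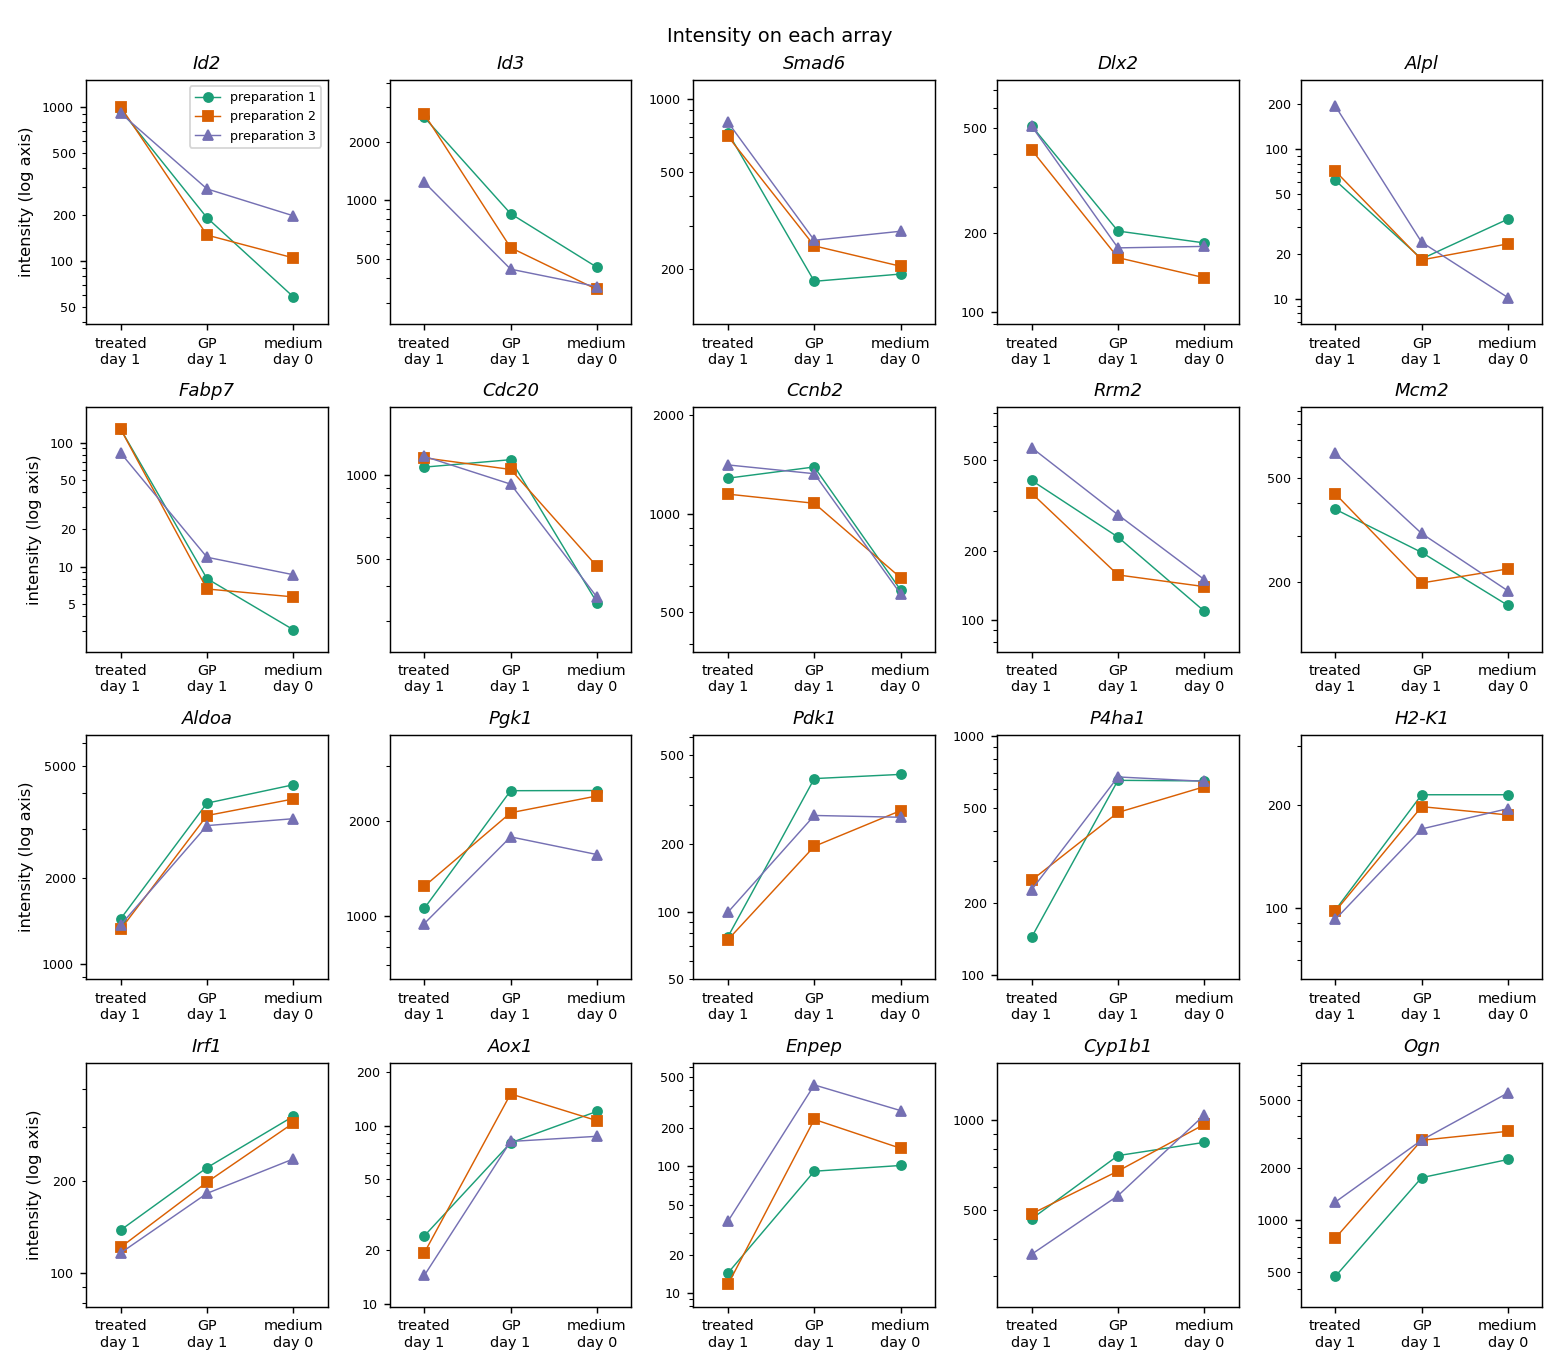
The intensity of 20 genes on each array is drawn on log axes for treated day 1, GP day 1 and medium day 0, with 1 line per preparation. Cdc20 and Ccnb2 stand at like levels in treated and GP cultures, above day 0, while Smad6, Dlx2 and Alpl stand apart in treated cultures alone, and Aldoa, Pdk1, P4ha1, H2-K1 and Aox1 lie lower there than in both others.

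Several genes of antigen presentation and of the interferon response fell. Of 8 MHC class I presentation genes 5 fell and 0 rose over day 0, beside 6.74% and 6.69% of all genes, median -0.67. Also 5 were lower in treated than in GP cultures, beside 3.15% of all genes. H2-K1, a class I heavy chain, read 98.4, 97.6 and 92.4 in treated, 215, 198.3 and 170.5 in GP and 215, 187.5 and 195.7 in day 0 cultures. The treated values were close to one another and below every GP and day 0 value. It fell by 1.05 ± 0.13 (adjusted p = 0.000334). Its probe set has a suffix for sequence shared between transcripts, and 2 dimmer probe sets of H2-K1 gave -1.56 (adjusted p = 0.0334) and 0.0873. Tap2, a peptide transporter, fell by 0.99 ± 0.16, and Tapbp, tapasin, by 0.68 ± 0.13, and the Tapbp call was lost without the pairing (adjusted p = 0.0793). Other Tapbp probe sets gave -0.69, which passed, and -0.34, which did not. The count of 5 was 2 without the pairing in both comparisons. Against day 0 it was 3 without treated preparation 2, without day 0 preparation 3 and without preparation 2 or 3. Against GP cultures it was 3 without treated preparation 1. It was 2 and 3 without GP preparation 2 or 3, 3 without preparation 1 or 3, and 0 without all arrays of preparation 2.

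Of 14 interferon response genes 7 fell and 1 rose, beside 6.74% and 6.69% of all genes. The 1 that rose was Ifi204, which was named after its value was seen. That single rise did not pass without the pairing, without treated preparation 2 or 3 or without any 1 day 0 array. The median was -0.75, against -0.13 in GP cultures, where limma called 0 and 1 gene lay in each direction at an unadjusted p under 0.05. Irf1, a transcription factor of the interferon response, read 138.5, 121.7 and 116.6 in treated, 221.6, 198.7 and 182.6 in GP and 326.2, 310.1 and 236.6 in day 0 cultures. GP values lay between treated and day 0 values without overlap, and Irf1 fell by 1.20 ± 0.12 (adjusted p = 9.45e-05). Psme1 and Psmb10, of the immunoproteasome, fell by 0.80 and 0.78, and Psmb10 did not pass without the pairing (adjusted p = 0.0843). Ifi47, an interferon-inducible GTPase, had the largest decrease of the named genes, -3.23 ± 0.51, but its treated values of 13.2, 2.4 and 3.1 were near the floor of 2.8, against 69, 34.8 and 39.3 in day 0 cultures. With values under 24.8 raised to 24.8 its change was -0.88 and that of Isg15 -0.56, and neither passed (adjusted p = 0.0772 and 0.501). The Isg15 call was also lost without the pairing, without treated preparation 2 and without day 0 preparation 3 (adjusted p = 0.0628, 0.0694 and 0.0751). The interferon count of 7 was 3 without the pairing, 4 without treated preparation 2, 4 without day 0 preparation 3 and 3 without preparation 2.

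Genes for retinoid handling and xenobiotic metabolism also fell. Of 15 tested genes in that list 8 fell and 0 rose, beside 6.74% and 6.69% of all genes, with a median of -0.84. In treated against GP cultures 6 were lower, beside 3.15% of all genes. Crabp2, which carries retinoic acid to its receptor, read 347.9, 148.8 and 87.5 in treated, 1167, 898.2 and 636.3 in GP and 1205, 872.6 and 640.2 in day 0 cultures. GP and day 0 values of Crabp2 were nearly alike within each preparation, and it fell by 2.41 ± 0.45 in treated cultures (adjusted p = 0.00353). Aox1, an aldehyde oxidase, fell by 2.46 ± 0.24 (adjusted p = 8.9e-05), to 24, 19.3 and 14.4, against 120.1, 106.5 and 87 at day 0.

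Cyp1b1, a cytochrome P450 under aryl hydrocarbon receptor control, averaged 436.4 ± 70.5 in treated and 951.6 ± 100 in day 0 cultures (SD, n = 3 each) and fell by 1.13 ± 0.20, with GP cultures between at 761.7, 676 and 558.9. The list's count was 5 without the pairing, 5 without day 0 preparation 2, and 4 and 3 without preparation 1 or 2. The count against GP cultures, 6, was 2 without the pairing and 3 and 2 without GP preparation 1 or 2. Among 31 glutathione and antioxidant genes 6 fell and 3 rose, beside 6.74% and 6.69% of all genes, and 1 and 1 without the pairing. Gstm1, a glutathione transferase, fell by 0.95 ± 0.15 and Ephx1, the microsomal epoxide hydrolase, by 1.16 ± 0.14, while Gclm, a subunit of the enzyme that starts glutathione synthesis, rose by 1.02 ± 0.19. Another probe set of Gstm1, with a suffix for relaxed probe design, gave 0.24 and did not pass, and the Ephx1 call was lost without the pairing (adjusted p = 0.0659).

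Secreted factors were mixed. Ptgs2, cyclooxygenase 2, which starts prostaglandin synthesis, read 421.1, 231.4 and 76.6 in treated, 55.1, 36 and 14.1 in GP and 86.8, 49.5 and 22 in day 0 cultures. Every preparation showed a similar gain although their levels differed, so the groups overlapped, and the rise was 2.10 ± 0.23 (adjusted p = 0.000162, and 0.147 without the pairing). Igf1, insulin-like growth factor 1, read 76.5, 92.6 and 252 in treated and 295.2, 355.1 and 842.4 in day 0 cultures. It fell by 1.88 ± 0.31 (adjusted p = 0.00173), and a second probe set of Igf1 gave -0.23 and did not pass. Igf1r, its receptor, fell by 0.70 ± 0.13.

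Cx3cl1, fractalkine, a membrane-bound chemokine, fell by 1.42 ± 0.14, and Ccl9 by 2.31 ± 0.41, and neither passed without the pairing (adjusted p = 0.154 and 0.216). Of the 16 chemokine and inflammation genes 5 fell, beside 6.74% of all genes, and Ptgs2 alone rose, near the 6.69% of all genes. Without the pairing limma called 0 of the 16. Wnt4, a Wnt ligand, read 34.4, 68.7 and 109.4 in treated, 3.4, 4.6 and 7.2 in GP and 7.2, 8.3 and 5.9 in day 0 cultures, and rose by 3.17 ± 0.61 (adjusted p = 0.00401). Its lower values were near the floor, and at the raised floor of 24.8 the change was 1.36 and did not pass (adjusted p = 0.052).

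Rbpj, the DNA-binding factor of Notch signalling, read 151.8, 109.3 and 93.7 in treated, 273.3, 268.9 and 223.1 in GP and 333.5, 308.7 and 387.6 in day 0 cultures. The 3 groups did not overlap, and Rbpj fell by 1.56 ± 0.16 (adjusted p = 1e-04). Hey1, a repressor that Notch and BMP signals induce, read 68.2, 81.5 and 131.8 in treated, 41.5, 50.9 and 24.3 in GP and 11.9, 16.9 and 17.2 in day 0 cultures. Its GP values lay between the other groups, its rise was 2.58 ± 0.57, and the treated minus GP difference did not pass (adjusted p = 0.229). The Hey1 call was lost without treated preparation 3 or day 0 preparation 1 (adjusted p = 0.0575 and 0.0513).

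Cytoskeletal and muscle genes fell in part. Of 19 genes of smooth muscle and actin cytoskeleton 6 fell, beside 6.74% of all genes, and 1 rose, near the 6.69% of all genes. Without the pairing 1 fell and 0 rose. Synpo, an actin-binding protein, read 37.9, 31.1 and 66.8 in treated, 183.9, 166.6 and 207 in GP and 233.6, 163 and 252.7 in day 0 cultures, and fell by 2.31 ± 0.22 (adjusted p = 6.83e-05) without overlap. Myh9, nonmuscle myosin, fell by 0.71 and Actn1, an actinin, by 0.64, neither without the pairing (adjusted p = 0.109 and 0.0575). Another Myh9 probe set, with a suffix for shared sequence, gave -0.15 and did not pass. Other Actn1 probe sets gave -1.31, which passed, and -0.45, which did not. Tnnc1 and Tnnt1, troponins of slow muscle, were both lower. Tnnc1 fell by 3.17 ± 0.50, Tnnt1 fell by 2.79 ± 0.34, and the other 7 tested genes of striated muscle did not pass. Treated values of Tnnt1 were 12.4, 11.2 and 6.6 and those of Tnnc1 7.5, 24.4 and 3.4, all below 24.8, against 75.6, 61.9 and 65.1 and then 90.1, 72.4 and 69.9 at day 0. A second, dimmer probe set of Tnnt1 gave -0.13 and did not pass (adjusted p = 0.857). With the raised floor the changes were -1.44 for Tnnt1 and -1.63 for Tnnc1 and still passed. Itga3, an integrin subunit, fell by 1.44 ± 0.21, while a dimmer probe set gave -0.94 and did not pass (adjusted p = 0.0555).

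Amino acid supply genes fell in 5 of 19 and rose in 0, beside 6.74% and 6.69% of all genes. Slc3a2 and Slc7a5, the 2 chains of the large neutral amino acid transporter, fell by 0.75 ± 0.10 and 1.37 ± 0.18, and Psat1, of serine synthesis, by 0.94 ± 0.14. Slc7a5 read 173, 222.4 and 370.9 in treated and 357.6, 509.6 and 1352 in day 0 cultures, so preparation 3 was highest in both groups, which overlapped. Without the pairing Slc3a2 alone of the 19 passed, and the adjusted p was 0.37 for Slc7a5 and 0.421 for Psat1. Trib3, a pseudokinase that stress induces, read 11, 10.2 and 5.9 in treated and 34.4, 52.5 and 208.9 in day 0 cultures. It fell by 3.05 ± 0.88 (adjusted p = 0.038), a call that was lost at the raised floor (0.0677), without the pairing (0.187) and, counting these, in 11 of the alternative fits.

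Of 29 lysosome genes 11 fell, all by less than 1 on the log2 scale, and 0 rose, beside 6.74% and 6.69% of all genes. Without the pairing limma called 0 of the 29. The count was 5, 5 and 6 without treated preparation 1, 2 or 3, and 6 and 2 without day 0 preparation 2 or 3. Lamp2, a membrane protein of the organelle, fell by 0.50 ± 0.09 and Grn, progranulin, by 0.74 ± 0.15. Other probe sets of Lamp2 and Grn gave -0.66 and -0.60 and did not pass. Among immediate early genes Egr1 read 66.5, 79.5 and 40.2 in treated, 120.5, 93 and 75.5 in GP and 731.4, 182 and 81.5 in day 0 cultures. A single day 0 array, preparation 1, held the highest value by far, and the fall of 1.89 ± 0.55 (adjusted p = 0.0388) was -1.04 without it and did not pass (adjusted p = 0.173). Counting that fit, the Egr1 call was lost in 13 of the alternative fits, among them those without any 1 treated array.

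Some further changes concerned single genes. Fabp7, a fatty acid binding protein known from glia, had the largest increase, with 128.2, 128.2 and 82.4 in treated, 8, 6.6 and 11.9 in GP and 3.1, 5.7 and 8.6 in day 0 cultures. It rose by 4.37 ± 0.74 (adjusted p = 0.00184), although day 0 values near the floor leave the size uncertain, and at the raised floor it was 2.16. Fabp5, a relative, rose by 1.02 ± 0.24, with a call that was lost without the pairing (adjusted p = 0.17) and without treated preparation 1 or 2 or day 0 preparation 1 (0.0522, 0.0651 and 0.0838). Smoc1, a secreted modulator of BMP signals, rose by 2.30 ± 0.57, and its call was lost in 8 of the alternative fits, among them those without any 1 treated array and without day 0 preparation 2 or 3. Enpep, glutamyl aminopeptidase, which trims angiotensin, read 14.5, 11.8 and 37 in treated, 91.4, 233.5 and 435.7 in GP and 101.4, 138.4 and 273.8 in day 0 cultures, and fell by 3.08 ± 0.38 (adjusted p = 0.000327). Another Enpep probe set, with a suffix for relaxed probe design, gave -0.10. At day 3 Enpep averaged 13.1 in treated and 595.5 in GP cultures.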

How the data were processed

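RNA of 15 arrays was measured as 1 linear intensity per probe set. In the deposited intensity values every array has the same trimmed mean, so they were scaled before deposit. The authors' software is not given in the sources used here. Values under 2.8 were set to 2.8, log2 values were computed from the deposited intensity values, and probe sets with a mean under 24.8 were left out. The model was limma's (version 3.58.1, R 4.3.3), with moderated variances that follow a mean trend, a coefficient per group, preparation number as a block and 8 residual degrees of freedom. The Benjamini-Hochberg adjustment ran over 7502 probe sets, with calls at 0.05. The fit was also run on simulated data with 200 genes set as changed, which is no check of the calls given here. Errors beside log2 changes are standard errors, and those beside group means are SDs.

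The numbers were taken to pair the arrays because the contrast itself is defined by that pairing. Deviations from the group means of same-numbered treated and day 0 arrays correlated at 0.41, 0.25 and 0.59 for preparations 1, 2 and 3. Preparation 3 stood apart from preparations 1 and 2 in every group, which by itself makes such deviations correlate. The correlations therefore cannot show that preparations 1 and 2 are matched by number across groups. Of 12422 probe sets other than controls, 10833 had 1 symbol in the platform annotation, 396 several and 1193 none. Entrez identifiers of 10817 matched RefSeq genes of GRCm38.p6 and changed 0 symbols. The probe set with the highest mean signal stood for a gene. The probe sets used for Actn1, Aldoa, Gstm1, H2-K1, Igf1, Kif20a, Lamc1, Nid2, Smad1, Srm and Tnnt1 carry suffixes for shared sequence or relaxed design, and a share of their signal from related transcripts was not tested.

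Genes were named by a rule, the 12 largest increases and 12 largest decreases past the threshold with the same direction in all 3 preparations, up to 4 genes with the smallest p in each of 48 lists, and a set of bone and BMP genes. The members and lists were chosen with earlier results of these data known. No set test was run. Promoter sequences are RefSeq's, GRCm38.p6, and motifs were searched by letters on both strands. Alternatives were other normalizations, filters, floors, variance models and fits without the pairing or without single arrays.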

Additional observations from a re-analysis of the deposited data

How the results depend on the processing

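The count of 899 probe sets for treated against day 0 cultures was 299 without the pairing (no replicate block), all among the 899, and 561 in a fit of the 6 arrays alone. Leaving out arrays gave 314 to 966. The count of 54 for GP against day 0 was 17 without the pairing and 92 with array weights, and 0 to 61 when arrays were left out. The 0 came without preparation 1, where limma had 417 at an unadjusted p under 0.05. The count of 372 for treated against GP cultures was 70 without the pairing, 230 without the signal filter, 218 without a mean trend and 793 with array weights, and 34 to 424 when arrays were left out. Other normalizations, floors, filters and variance models kept the count of 899 between 724 and 1026. The fits without a GP day 1 array and without the GP day 3 array of preparation 3, whose actin 3′ to 5′ ratio was 2.11 against 1.00 to 1.34 elsewhere, were added after seeing the data.

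Of 144 named genes with a call, 69 kept it without the pairing, 110 in the 6 arrays alone, 88, 65 and 106 without preparation 1, 2 or 3, 123 without a mean trend and 135 at a floor of 24.8. Calls lost at that floor were those of Ampd3, Ifi47, Isg15, Plscr2, Polr2i, Rps13, Tgfbr3, Trib3 and Wnt4. The sign turned for Nog and Tnfrsf11b, neither of which passed. Leaving out arrays gave -0.257 to 0.0885 for Nog, positive only without day 0 preparation 3. It gave -0.0182 to 0.537 for Tnfrsf11b, with -0.0182 without preparation 2 and -7.71e-05 without day 0 preparation 2. The sign also turned in other probe sets of Col1a1 (0.17), Gstm1 (0.24), H2-K1 (0.0873) and Psmb5 (-0.13). Of 1078 recomputed list medians, 64 moved by more than the spread between preparations. The cause was not tested for any of these. The number of arrays and signal near the floor limit the precision.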
